A study of Mus musculus with 3 samples.

Results

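The cells described here are 2330 neutrophil-lineage cells of the mouse jaw that carried RNA of secondary granule proteins and little RNA of primary granule proteins. They were taken from 20504 kept barcodes of 3 libraries (Ctrl, 1d and 7d), where kept barcodes held 500 or more unique molecular identifiers (UMIs, each counting 1 captured RNA molecule) over 250 or more genes, with 15% or less of them mitochondrial. The cells were chosen by their own RNA: Camp, Ngp and Ltf together made up at least 1% of a cell's UMIs, and Elane, Mpo and Prtn3 together made up under 0.5%. Ctrl gave 491 such cells, 1d gave 1388 and 7d gave 451. Because these 6 genes set the choice, their levels and the number of cells are descriptions. The deposited series compared 10-week-old male wild-type C57BL/6 mice, 8 per group, whose jaw cells were pooled into 1 library for each group. Ctrl mice had no treatment, and 1d and 7d mice received 10 Gy to the head and neck and were killed 1 and 7 days afterwards. With 1 library in each group, mouse-to-mouse spread was not measured and no test between groups was possible. All intervals in parentheses are exact 95% intervals of counting error alone. Jaw tissue was digested with collagenase II, and the cells were frozen and thawed before droplet capture.

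Neutrophils are made in bone marrow from dividing precursors that fill their granules in a fixed order. Primary (azurophil) granule proteins such as elastase and myeloperoxidase come first, secondary (specific) granule proteins such as lactoferrin and cathelicidin come next under the factor C/EBPε, and gelatinase granules come last. Cells stop dividing while secondary granules are being filled, and the RNA of granule proteins is then lost as the cells mature and leave for the blood. The 5 marker genes of this stage were Camp (cathelicidin, an antimicrobial peptide), Ngp (neutrophilic granule protein), Ltf (lactoferrin, an iron-binding protein), Lcn2 (lipocalin 2, which binds bacterial siderophores) and Fcnb (ficolin B, a lectin of early precursors).

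The sequences before the RefSeq start sites of these 5 genes are shown because these genes mark the cells described here. The build is GRCm38.p6, and all 5 genes were matched in the RefSeq table. Each run is the 250 bases before the start, 5′ to 3′ on the gene's strand, with capitals for matches, on either strand, to TTGCNNAA (a partly specified form of the C/EBP motif, where N is any base) or GAGGAA (the core of the PU.1 motif). The 2 motifs share no match in these runs. The runs lie at chr9:109849457-109849706, minus strand for Camp, chr2:28084879-28085128, minus strand for Fcnb, chr9:110419558-110419807, plus strand for Ngp, chr2:32387740-32387989, minus strand for Lcn2 and chr9:111019042-111019291, plus strand for Ltf.
Camp: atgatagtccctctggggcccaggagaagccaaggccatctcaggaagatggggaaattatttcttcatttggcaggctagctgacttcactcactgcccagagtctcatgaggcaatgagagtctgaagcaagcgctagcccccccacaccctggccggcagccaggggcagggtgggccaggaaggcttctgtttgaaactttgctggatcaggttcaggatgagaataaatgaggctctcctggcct
Fcnb: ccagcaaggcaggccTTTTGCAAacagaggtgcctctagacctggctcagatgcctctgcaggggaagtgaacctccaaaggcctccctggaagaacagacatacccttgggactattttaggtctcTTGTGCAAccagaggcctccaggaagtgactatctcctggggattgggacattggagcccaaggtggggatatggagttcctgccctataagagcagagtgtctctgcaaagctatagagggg
Ngp: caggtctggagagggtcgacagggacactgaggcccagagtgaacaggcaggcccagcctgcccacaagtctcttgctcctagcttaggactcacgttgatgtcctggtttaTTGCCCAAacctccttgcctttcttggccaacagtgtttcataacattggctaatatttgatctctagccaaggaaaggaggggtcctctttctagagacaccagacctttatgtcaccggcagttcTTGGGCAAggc
Lcn2: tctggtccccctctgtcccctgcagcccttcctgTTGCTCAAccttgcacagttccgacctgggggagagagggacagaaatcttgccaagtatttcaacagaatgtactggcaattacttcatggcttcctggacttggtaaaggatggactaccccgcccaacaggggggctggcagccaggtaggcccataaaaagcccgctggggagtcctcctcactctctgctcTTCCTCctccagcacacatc
Ltf: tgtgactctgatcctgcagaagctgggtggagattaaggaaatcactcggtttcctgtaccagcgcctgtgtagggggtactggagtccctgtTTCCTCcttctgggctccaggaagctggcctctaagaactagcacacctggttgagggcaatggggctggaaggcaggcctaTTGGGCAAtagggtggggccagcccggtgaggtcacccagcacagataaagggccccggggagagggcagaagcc
The C/EBP form was found at 2 places before Fcnb and 2 before Ngp, at 1 before Lcn2 and 1 before Ltf, and at 0 before Camp. The PU.1 core was found once before Lcn2 and once before Ltf. Among all 32851 promoter sequences of the same length in the table, 9.56% held the C/EBP form and 23.3% held the PU.1 core. These matches are letters in a window and not measured binding sites.

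The files were deep enough to follow single genes in these cells. The chosen cells held 5431706 UMIs in Ctrl, 13677564 in 1d and 4660593 in 7d, with medians of 7473, 7400.5 and 8689 UMIs and 1817, 1638.5 and 1928 genes per cell. Median depth over all kept barcodes was 2463, 5196 and 3935 UMIs. None of the 3 pairs of libraries shared a barcode among the chosen cells, and 9 to 15 kept barcodes were shared by each pair over the whole series. Levels below are UMIs per 1000000 UMIs of the chosen cells of a library (CPM), and a ratio divides 2 such levels.

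The chosen cells were a small part of the kept barcodes of Ctrl and 7d and a large part of 1d. They made up 5.53% (5.06 to 6.03) of kept barcodes in Ctrl, 27.1% (25.9 to 28.3) in 1d and 6.94% (6.34 to 7.59) in 7d. The share in 1d was 4.90 times that in Ctrl (4.41 to 5.44). The share in 7d was 1.26 times that in Ctrl (1.10 to 1.43), but with a bound of 0.5% for Camp, Ngp and Ltf it was 0.738 times, so the direction in 7d rested on the bound. Around the bound of 1%, Ctrl had 138 cells between 0.8% and 1.0% and 54 between 1.0% and 1.2%, 1d had 25 and 19, and 7d had 6 and 9. Around the bound of 0.5% for Elane, Mpo and Prtn3, there were 2, 8 and 13 cells between 0.4% and 0.5% in Ctrl, 1d and 7d, and 0, 12 and 6 between 0.5% and 0.6%. For comparison, cells with at least 0.5% of Elane, Mpo and Prtn3 numbered 43 in Ctrl, 310 in 1d and 521 in 7d. Cells under both bounds with at least 3% of S100a8 and S100a9 (calprotectin subunits that stay high in mature neutrophils) numbered 2713, 332 and 122. Cells before and after the secondary granule stage therefore stood in opposite proportions in Ctrl and in 7d.

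The share of a cell's UMIs given by Camp, Ngp and Ltf ran from the bound to over 10%, and its distribution differed between the libraries. The median was 4.6% in Ctrl, 9.44% in 1d and 9.39% in 7d. In Ctrl, 134 cells (27.3%) lay between 1% and 2% and 36 cells (7.33%) at 10% or more. In 1d these were 102 (7.35%) and 596 (42.9%), and in 7d they were 38 (8.43%) and 200 (44.3%). The lowest range was thus the fullest in Ctrl, while in 1d and 7d the top range was the fullest.

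**Figure D1:**
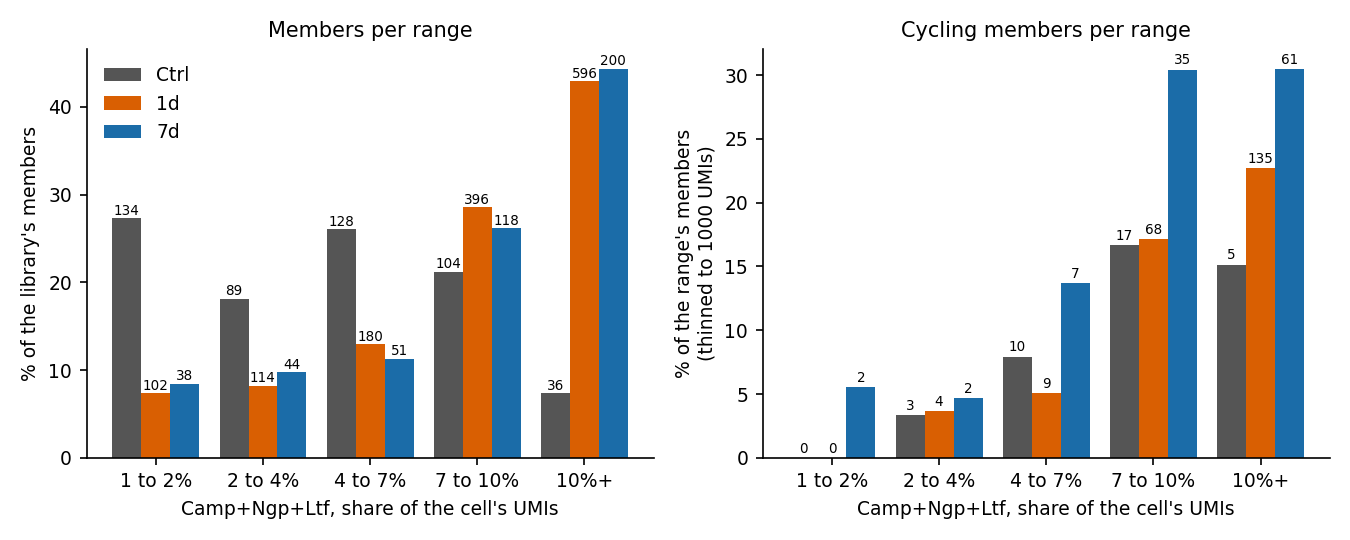
Chosen cells (members in the plot titles) of each library (Ctrl grey, 1d orange, 7d blue) in 5 ranges of Camp+Ngp+Ltf share of UMIs (x axis). Left, percent of the library's chosen cells in each range, with cell numbers above the bars; right, percent of each range that was cycling after thinning to 1000 UMIs, with numbers of cycling cells above the bars. Ctrl cells spread over the lower ranges, with 36 at 10% or more, and cycling cells lay mostly at 7% and above in all 3 libraries.

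The markers fitted the label of neutrophil precursors at the upper end of this range and not at the lower end. Retnlg, a resistin-like protein of late neutrophils, stood between 1% and 2% at 34418, 36322 and 23458 CPM in Ctrl, 1d and 7d, and at 10% or more at 3921, 2962 and 1659.7 CPM. Fcnb went the other way, from 7.91, 21 and 157 CPM to 400.4, 591 and 695 CPM. Il1b, an inflammatory cytokine of mature neutrophils, stood at 1579.6, 1302 and 609 CPM in the lowest range and at 186, 37.1 and 47.1 CPM in the highest. The lowest range therefore held RNA of older neutrophils in every library, and the cells are called secondary granule cells here. In mature S100a8-rich and S100a9-rich cells outside the choice, Retnlg stood at 24990, 30038 and 28135 CPM, of the same order as in the lowest range.

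Lymphoid cells should lack these genes, and their barcodes give the level of free RNA. Lymphoid barcodes held at least 3 UMIs of B and T cell receptor complex genes and the B cell surface gene Ms4a1 together. Their median depth was 2419, 2838 and 3531 UMIs, and their median share of Camp, Ngp and Ltf was 0, 0.0251% and 0. After thinning every cell to 1000 UMIs, Fcnb gave a UMI in 7.5%, 18.6% and 28.3% of secondary granule cells. In the lymphoid barcodes Fcnb gave a UMI in 0.112%, 0.42% and 0.411%. Without thinning, 23.8%, 42.4% and 53.7% of secondary granule cells held it. The genes of the choice were found more often in thinned lymphoid barcodes, most often in 1d. Camp gave a UMI in 5.93%, 13.7% and 4.57% of them, against 93.3%, 97.7% and 97.1% of secondary granule cells. Ngp gave a UMI in 6.87%, 14.7% and 4.48% of the lymphoid barcodes. The choice itself was met by 18, 35 and 13 lymphoid barcodes (0.662%, 2.04% and 0.589%). The median depths of the cells that could be thinned were 7976, 7457 and 8919 UMIs, against 2424, 2830 and 3524 UMIs in the lymphoid barcodes.

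The share of secondary granule cells that cycled was lowest in Ctrl and highest in 7d. A cell was counted as cycling when, after thinning to 1000 UMIs, it held at least 2 UMIs of Mki67, Top2a, Pclaf, Birc5, Ube2c and Cdk1, genes of DNA replication and mitosis. By this rule 35 of 480 (7.29%, 5.13 to 9.995) cells cycled in Ctrl, 216 of 1373 (15.7%, 13.8 to 17.8) in 1d and 107 of 445 (24%, 20.1 to 28.3) in 7d. Unthinned, the shares were 30.5%, 33.5% and 47%, in the same order. Within the range of 10% or more, 5 of 33 cells cycled in Ctrl (15.2%), 135 of 595 in 1d (22.7%) and 61 of 200 in 7d (30.5%). Between 7% and 10% they were 17 of 102, 68 of 396 and 35 of 115 (16.7%, 17.2% and 30.4%), so that Ctrl and 1d were near each other there and 7d was higher. In the mature cells outside the choice, 4 of 2541, 3 of 327 and 1 of 111 cells passed the same rule, and among cells rich in Elane, Mpo and Prtn3, 16 of 43, 85 of 308 and 137 of 520 did.

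Ltf-rich cells, those with Ltf at 0.5% or more of their UMIs, were 263 of 491 in Ctrl (53.6%), 996 of 1388 in 1d (71.8%) and 317 of 451 in 7d (70.3%). The bound cuts a continuous range, and 70, 172 and 45 cells had Ltf between 0.4% and 0.6%. Among cells at 4% or more of Camp, Ngp and Ltf, the Ltf-rich shares were 89.2%, 84.6% and 82.1%, which puts Ctrl highest instead of lowest. With a bound of 2% for that sum they were 73.1%, 77.4% and 76%, with Ctrl still lowest. The order of the libraries in Ltf-rich cells therefore changed between the bounds of 2% and 4%, of which 4% was chosen after seeing the data. Ltf is itself part of the sum, and why the order changed was not tested.

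Cycling cells with Ltf under 0.5% and non-cycling cells with Ltf at 0.5% or more were set against each other within 1d (48 and 826 cells) and 7d (31 and 236 cells). Ctrl had only 8 of the former and was left out. Ms4a3, a membrane protein of granulocyte progenitors that the choice did not use, was 7.31 (6.18 to 8.66) times as high in the cycling Ltf-low cells in 1d and 4.86 (3.85 to 6.15) times in 7d. Elane (neutrophil elastase) was 26 (22 to 30.9) times as high in them in 1d and 28.4 (21.8 to 37.4) times in 7d, Prtn3 (proteinase 3) 22 and 16.2 times, and Mpo (myeloperoxidase) 13.3 and 33.6 times. The choice capped the sum of these 3 genes, so their ratios are descriptions only. Genes of haem synthesis and red cell precursors were in the same set, with Car2 (carbonic anhydrase 2) at 20.2 and 13.6 times, Cpox (coproporphyrinogen oxidase) at 25.2 and 17.1 times and Blvrb (biliverdin reductase B) at 7.1 and 12.8 times. Hspa1a, an inducible heat shock protein, was at 6.21 and 7.61 times. The part of red cell precursor RNA from other cells in these values was not tested.

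The markers differed in direction along this contrast. Fcnb was higher in the cycling Ltf-low cells, at 4.65 (4.35 to 4.96) times in 1d and 3.23 (2.91 to 3.59) times in 7d. Camp was nearly level, at 1.19 (1.18 to 1.2) and 1.07 (1.06 to 1.09) times. Ngp was lower in the cycling cells, at 0.71 (0.703 to 0.718) and 0.516 (0.507 to 0.525), and Lcn2 at 0.589 (0.576 to 0.603) and 0.428 (0.413 to 0.444). Ltf itself set the contrast and is not given. Camp and Ngp were part of the choice together with Ltf, so their ratios are descriptions. Of the 2 markers that the choice did not use, Fcnb was higher and Lcn2 lower in the cycling cells. Cebpe, which encodes C/EBPε, was 2.11 and 1.5 times as high in the cycling cells, and Chil3 (a chitinase-like protein of marrow granulocytes) was at 0.987 and 0.826.

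Several genes of granule proteins and of the mature surface were higher in the non-cycling Ltf-rich cells. Mmp8 (neutrophil collagenase) was 9.79 times as high in them in 1d and 17.6 times in 7d, Mmp9 (gelatinase B) 7.39 and 27.9 times, and Retnlg 4.89 and 9.57 times. Ly6g, the surface antigen used to sort mouse neutrophils, was 7.84 and 15.3 times as high. Fpr2, a formyl peptide receptor, was at 8.31 and 19.1 times, Plbd1, a phospholipase B-like protein, at 8.05 and 11.9 times and St3gal5, a ganglioside synthase, at 7.11 and 8.05 times. Genes were named for the late end by their lowest ratio over the libraries compared. Their shared direction in 1d and 7d was therefore set by that rule.

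**Figure D2:**
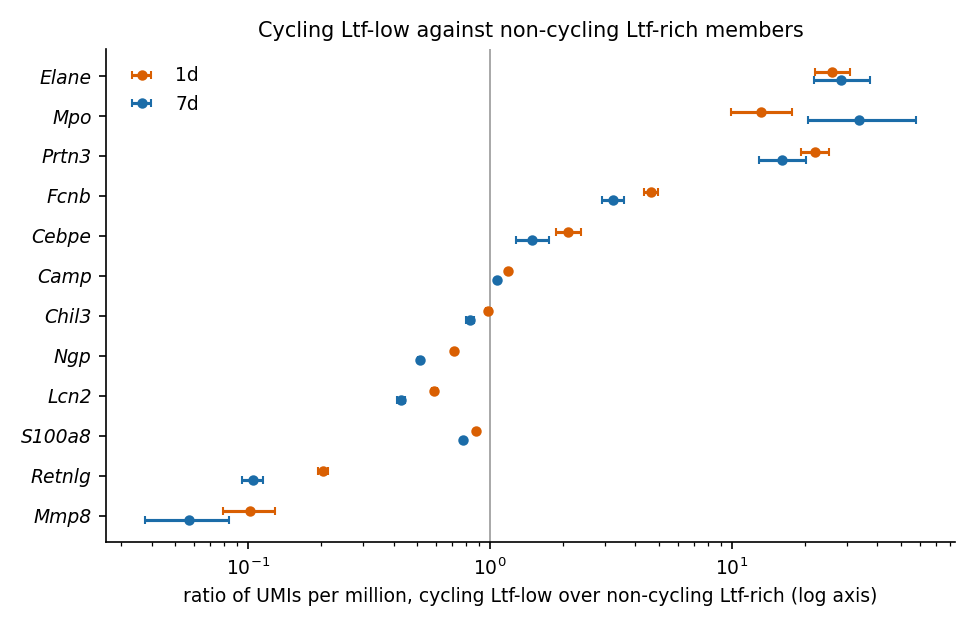
Ratio of CPM in cycling Ltf-low cells over non-cycling Ltf-rich cells (x axis, log scale) for 12 genes (rows) in 1d (orange) and 7d (blue), with exact 95% counting intervals; the grey line marks 1. Elane, Mpo, Prtn3 and Fcnb lie to the right, Camp and Chil3 near 1, and Retnlg and Mmp8 to the left in both libraries.

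Comparisons between libraries were made on UMIs summed over the secondary granule cells, and a gene counted as past 2-fold when its ratio was at least 2 or at most 0.5. Genes with at least 20 UMIs over the 2 libraries were measured. In 1d against Ctrl, 971 of 10258 measured genes (9.47%) were higher past 2-fold and 1042 (10.2%) lower, with a median log2 ratio of 0.04. In 7d against Ctrl, 1892 of 9448 (20%) were higher and 982 (10.4%) lower, with a median of 0.22. Both comparisons share the Ctrl library, so genes that stood apart in Ctrl alone enter both. The split depended on the scaling: in 7d it was 1450 higher and 1225 lower with TMM factors, and in 1d it was 1573 and 732 with totals that left out granule genes. Those totals moved the median of all genes by 0.25 (log2) in 1d and by 0.14 in 7d, TMM factors moved it by −0.17 in 7d, and thinning moved it by −0.10 in 1d and by −0.23 in 7d. Because the libraries differed in stage, every list below was also measured in non-cycling Ltf-rich cells alone (229, 826 and 236 cells). There 5.66% of 8909 genes were higher and 9.90% lower past 2-fold in 1d, and 9.43% of 7759 were higher and 11.3% lower in 7d. List counts below are to be read beside the share of all measured genes for the same cells and comparison.

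Among secondary granule genes, Fcnb differed most. Fcnb stood at 198 CPM in Ctrl, 488 in 1d and 649 in 7d, which is 2.46 (2.31 to 2.63) times Ctrl in 1d and 3.27 (3.05 to 3.51) times in 7d. Over the non-cycling Ltf-rich cells these ratios were 1.63 and 1.98, both under 2. Camp stood at 24800.3 CPM in Ctrl, 44063 in 1d and 42295 in 7d and Ngp at 28839.9 CPM in Ctrl, 44575 in 1d and 39495 in 7d, and Ltf at 6705 CPM in Ctrl, 7224 in 1d and 7103 in 7d. Lcn2 stood at 11360 CPM in Ctrl, 11026 in 1d and 9967 in 7d, nearly level across the libraries. Olfm4 (olfactomedin 4, present in a subset of neutrophils) stood at 228 CPM in Ctrl, 184 in 1d and 112 in 7d, with a ratio of 0.491 (0.443 to 0.545) in 7d and of 0.583 in the non-cycling Ltf-rich cells. Of 14 measured genes in the secondary granule list, 1 was higher past 2-fold in 1d and 0 lower, and 1 was higher and 1 lower in 7d, with medians of 0.09 and 0.11. The ratios under 2 for Camp and Ngp describe cells that were chosen on those genes.

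Of the primary granule genes that the choice did not use, most were highest in 7d. Ms4a3 stood at 37.2 CPM in Ctrl, 73.8 in 1d and 160.1 in 7d, a ratio of 1.99 (1.71 to 2.32) in 1d and 4.3 (3.68 to 5.05) in 7d, and Prss57, a serine protease, stood at 12.5 CPM in Ctrl, 18.1 in 1d and 33.7 in 7d. Of the 4 measured genes other than Elane, Mpo and Prtn3, 0 were higher or lower past 2-fold in 1d and 3 were higher in 7d, and among non-cycling Ltf-rich cells 2 were lower in 1d and 1 was higher in 7d. The genes capped by the choice are given as a description. Elane stood at 45.7 CPM in Ctrl, 122 in 1d and 274 in 7d and Mpo at 20.1 CPM in Ctrl, 31.9 in 1d and 117 in 7d. With 5% free RNA subtracted, the log2 ratio of Elane in 1d went from 1.41 to −0.0063 and that of Mpo from 0.66 to −8.00, so no direction is read from them in 1d. In non-cycling Ltf-rich cells of 7d the ratio of Prtn3 was 0.73, below 1.

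Most factors that drive granule gene expression were within 2-fold in both comparisons. Cebpe stood at 132 CPM in Ctrl, 193 in 1d and 304 in 7d, or 1.46 (1.34 to 1.59) and 2.3 (2.1 to 2.52) times Ctrl. Cebpa, the factor of early granulocyte commitment, stood at 8.84 CPM in Ctrl, 9.14 in 1d and 18.9 in 7d and Myb, a factor of dividing progenitors, at 26.7 CPM in Ctrl, 39.8 in 1d and 54.9 in 7d. Gfi1, a repressor needed for granulocyte maturation, stood at 14.4 CPM in Ctrl, 9.8 in 1d and 13.1 in 7d and was not past 2-fold in either. Rara, the retinoic acid receptor alpha, stood at 18 CPM in Ctrl, 7.24 in 1d and 23.6 in 7d. Of 18 factors, 0 were higher and 1 lower past 2-fold in 1d, and 3 were higher and 0 lower in 7d. The share higher in 7d (16.7%) was below the 20% of all measured genes. For non-cycling Ltf-rich cells 3 were lower in 1d, and 0 were past 2-fold in either direction in 7d.

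Many genes of late neutrophils and some of gelatinase granules and secretory vesicles were lower in 1d and 7d. Retnlg stood at 14861 CPM in Ctrl, 8124 in 1d and 5569 in 7d, or 0.547 (0.542 to 0.552) and 0.375 (0.37 to 0.38) times Ctrl. Fpr1, the main formyl peptide receptor, stood at 141 CPM in Ctrl, 45.1 in 1d and 18.5 in 7d, and Slc11a1, a metal transporter of phagosomes, at 77.9 CPM in Ctrl, 25.4 in 1d and 18 in 7d. Of 11 tertiary granule and secretory vesicle genes, 2 were lower past 2-fold in 1d and 4 in 7d, and 0 were higher (medians −0.65 and −0.68). In non-cycling Ltf-rich cells 2 of these 11 were lower in each comparison, with medians nearer 0 at −0.47 and −0.16. Of 19 late neutrophil genes, 9 and 13 were lower (medians −0.85 and −1.53), and in non-cycling Ltf-rich cells 10 and 11 were (−1.05 and −1.21). The late neutrophil list was therefore low also where cells of 1 class were compared, although Ltf-rich cells still span a range of stages.

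Receptors that steer neutrophils between marrow and blood differed unequally. Cxcr2, which draws mature neutrophils out of the marrow, stood at 219.8 CPM in Ctrl, 97.8 in 1d and 62.4 in 7d and Ccr1, a chemokine receptor, at 505 CPM in Ctrl, 232 in 1d and 121 in 7d. Cxcr4, which holds cells in the marrow, stood at 226 CPM in Ctrl, 145 in 1d and 227 in 7d, level between Ctrl and 7d. Itga4, the integrin subunit α4 that also anchors precursors, stood at 9.57 CPM in Ctrl, 12.2 in 1d and 22.3 in 7d, a ratio of 2.33 (1.66 to 3.32) in 7d. Csf3r, the receptor for G-CSF, stood at 182 CPM in Ctrl, 101 in 1d and 92.9 in 7d. The 7 measured genes of the NADPH oxidase, which makes superoxide in phagocytes, were all within 2-fold in both comparisons (medians 0.19 and 0.24).

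A part of the S phase and mitosis genes was higher in 1d and 7d. Of 35 S phase genes, 10 were higher past 2-fold in 1d and 16 in 7d (medians 0.64 and 0.95), and of 49 G2/M genes, 15 and 16 were (medians 0.63 and 0.82). These were 28.6% and 45.7% of S phase genes and 30.6% and 32.7% of G2/M genes, beside 9.47% and 20% of all measured genes. Within non-cycling Ltf-rich cells 1 of 35 and 6 of 33 S phase genes were higher, and the medians were −0.06 and 0.37 for S phase and −0.06 and −0.03 for G2/M. The S phase shares there were 2.86% and 18.2%, beside 5.66% and 9.43% of all genes measured in those cells. Those cells were chosen for low RNA of cycle genes, so their cycle list values are descriptions. Tyms (thymidylate synthase) stood at 8.84 CPM in Ctrl, 39 in 1d and 43.8 in 7d, Aurkb (a mitotic kinase) at 4.23 CPM in Ctrl, 21.1 in 1d and 21.7 in 7d and E2f8 (a repressor of the E2F family) at 15.6 CPM in Ctrl, 45.2 in 1d and 68.2 in 7d. Asf1b, a histone chaperone of replicating chromatin, stood at 10.5 CPM in Ctrl, 35.5 in 1d and 43.6 in 7d. Psrc1, a spindle protein that is also induced by p53, went the other way at 11.4 CPM in Ctrl, 0.95 in 1d and 2.36 in 7d.

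RNA of nearly all measured replication-dependent histones was higher in 1d and 7d than in Ctrl, in cycling and in non-cycling cells. These genes are normally expressed in S phase and their transcripts mostly lack the poly(A) tail by which the libraries capture RNA. H1f4, a linker histone, stood at 10.7 CPM in Ctrl, 98.5 in 1d and 80.03 in 7d, or 9.22 (7.09 to 12.2) and 7.5 (5.67 to 10.1) times Ctrl. H1f3, another linker histone, stood at 2.39 CPM in Ctrl, 36 in 1d and 40.6 in 7d, and H2ac8, a core histone, at 9.57 CPM in Ctrl, 101 in 1d and 104 in 7d. In 1d, 54 of 57 measured histone genes were higher past 2-fold (median 2.61), and in 7d 47 of 48 (median 2.71). For non-cycling Ltf-rich cells 40 of 46 and 21 of 25 were, with medians of 2.04 and 2.06. In cycling cells alone 47 of 48 and 38 of 39 were, and in the rest of each library 54 of 58 and 54 of 59. Over all measured genes of the cycling cells, 16.4% were higher past 2-fold in 1d. Between 7d and 1d, 1 of 58 was higher and 1 lower. In mature cells outside the choice 6 of 12 and 4 of 8 were higher, and in cells rich in Elane, Mpo and Prtn3 26 of 54 and 22 of 56. The difference thus set Ctrl apart from both other libraries. Shares over all genes are not given here for the cells before and after this stage. Cells before it numbered 43 in Ctrl, and cells after it numbered 122 in 7d. Their histone counts are therefore not ranked against those of the secondary granule cells. The difference between these cell sets was not tested. Cells with B, T, natural killer, macrophage, eosinophil, mast cell, basophil, megakaryocyte or mesenchymal markers were left out as an alternative. Then 20 UMIs of H1f4 remained in Ctrl, and its ratios were 16.6 in 1d and 14.4 in 7d. Those of H2ac8 were 27.6 and 29.4. The sizes of these ratios therefore depended on those Ctrl cells, and the direction did not. This list was added after values were seen, and histone genes share near-identical copies, so the split of UMIs among single genes is uncertain.

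Several genes of the nuclear envelope and chromatin were also higher. Lmnb2 (lamin B2) stood at 2.39 CPM in Ctrl, 11 in 1d and 21.5 in 7d, Hmgb3 (a high-mobility-group protein of progenitors) at 9.02 CPM in Ctrl, 28.4 in 1d and 44.8 in 7d and Tmpo (lamina-associated polypeptide 2) at 34.4 CPM in Ctrl, 98.8 in 1d and 141 in 7d. Of 11 measured genes, 4 were higher past 2-fold and 1 lower in 1d, and 7 higher and 0 lower in 7d, and among non-cycling Ltf-rich cells 2 and 4 were higher and 1 lower in each. The lower gene was Lmna (lamin A/C), at 39.2 CPM in Ctrl, 11.8 in 1d and 32.4 in 7d. Hmgb3 had ratios of 2.81 and 3.47 in those cells.

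**Figure D3:**
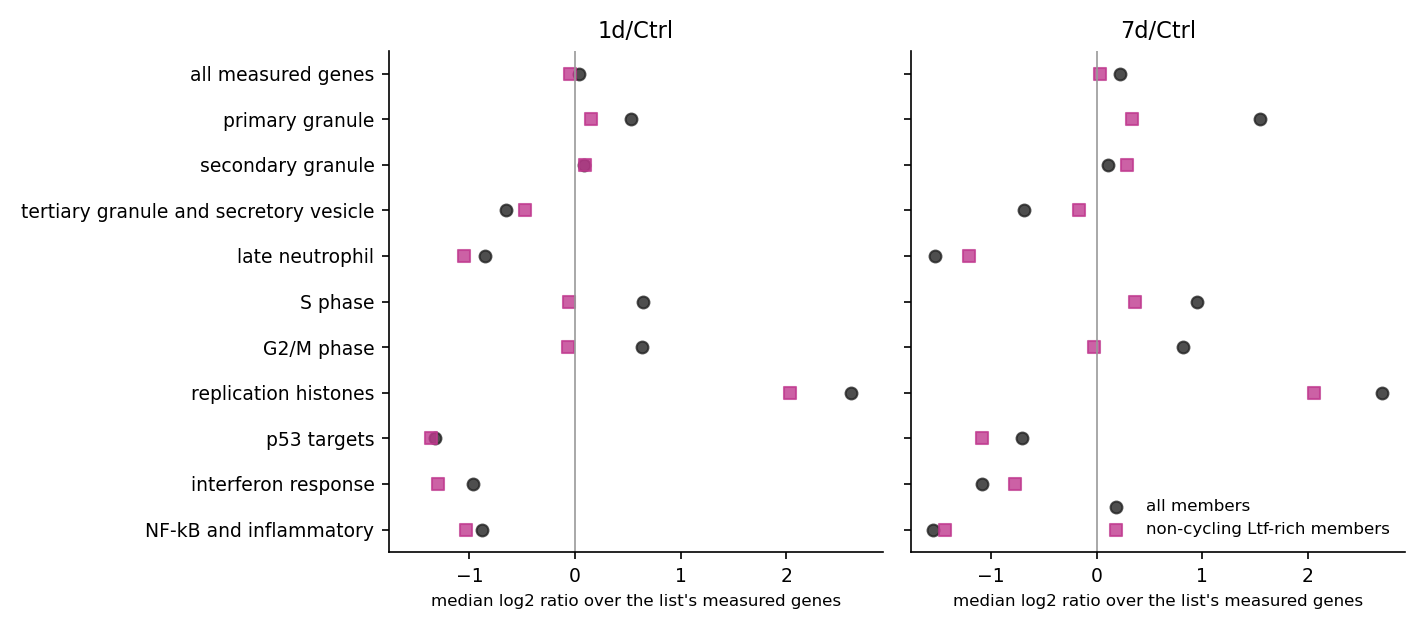
Median log2 ratio of 10 gene lists and of all measured genes (rows) in 1d against Ctrl (left) and 7d against Ctrl (right), over all secondary granule cells (black circles) and over non-cycling Ltf-rich cells alone (magenta squares). The primary and secondary granule lists hold genes that the choice used. S phase and G2/M medians lie nearer 0 in the non-cycling cells, which were chosen for low RNA of cycle genes. Histone, p53 target, interferon, NF-kB and late neutrophil medians lie 0.71 or more from 0 in both cell sets.

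RNA of many genes that p53 switches on after DNA damage was highest in the library labelled Ctrl. Ccng1 (cyclin G1) stood at 232 CPM in Ctrl, 18.4 in 1d and 17.6 in 7d, or 0.0792 (0.0689 to 0.0908) and 0.076 (0.060 to 0.095) times Ctrl. Cdkn1a (the cell cycle inhibitor p21) stood at 853 CPM in Ctrl, 182 in 1d and 203 in 7d, or 0.213 (0.203 to 0.224) and 0.238 (0.222 to 0.255) times, and Mdm2 (the ligase that degrades p53) at 453 CPM in Ctrl, 126 in 1d and 147 in 7d, or 0.278 (0.261 to 0.295) and 0.324 (0.297 to 0.353) times. These 3 genes were low in both irradiated groups and high in the untreated one, by the labels. The pro-apoptotic gene Bax stood at 159 CPM in Ctrl, 31.7 in 1d and 32 in 7d, Pmaip1 (Noxa) at 44.9 CPM in Ctrl, 11.6 in 1d and 28.1 in 7d, and Phlda3, an inhibitor of Akt, at 20.4 CPM in Ctrl, 0.585 in 1d and 0.858 in 7d. Of 41 measured targets, 22 were lower past 2-fold in 1d and 1 higher, and of 40 in 7d, 17 were lower and 2 higher. The list's medians were −1.32 and −0.71, beside 0.04 and 0.22 for all measured genes. Under every alternative run for the list the medians were below 0, and in thinned cells the median of 7d was −1.52.

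Ccng1, Cdkn1a and Mdm2 were lower in 1d and 7d in every range of the secondary granule cells. In Ctrl, Ccng1 stood at 248, 277, 219, 235 and 169 CPM from the lowest to the highest range of Camp, Ngp and Ltf. In 1d it stood at 25.2, 21.1, 18.3, 18.3 and 17.7 CPM, and in 7d at 34.5, 23.7, 10.9, 17.4 and 15.9 CPM. The ranges are cells of the same library and not replicates, and how many other genes parted the libraries in this way was not counted. Mdm2 in Ctrl went from 772 CPM at 2% to 4% to 199 CPM at 10% or more, near the 142 CPM of 7d in that range, where its ratios to Ctrl were nearest 1. Cdkn1a in Ctrl went from 1187 to 365 CPM over the same ranges. Among non-cycling Ltf-rich cells 22 of 37 targets were lower in 1d and 18 of 34 in 7d, and 0 were higher in either.

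**Figure D4:**
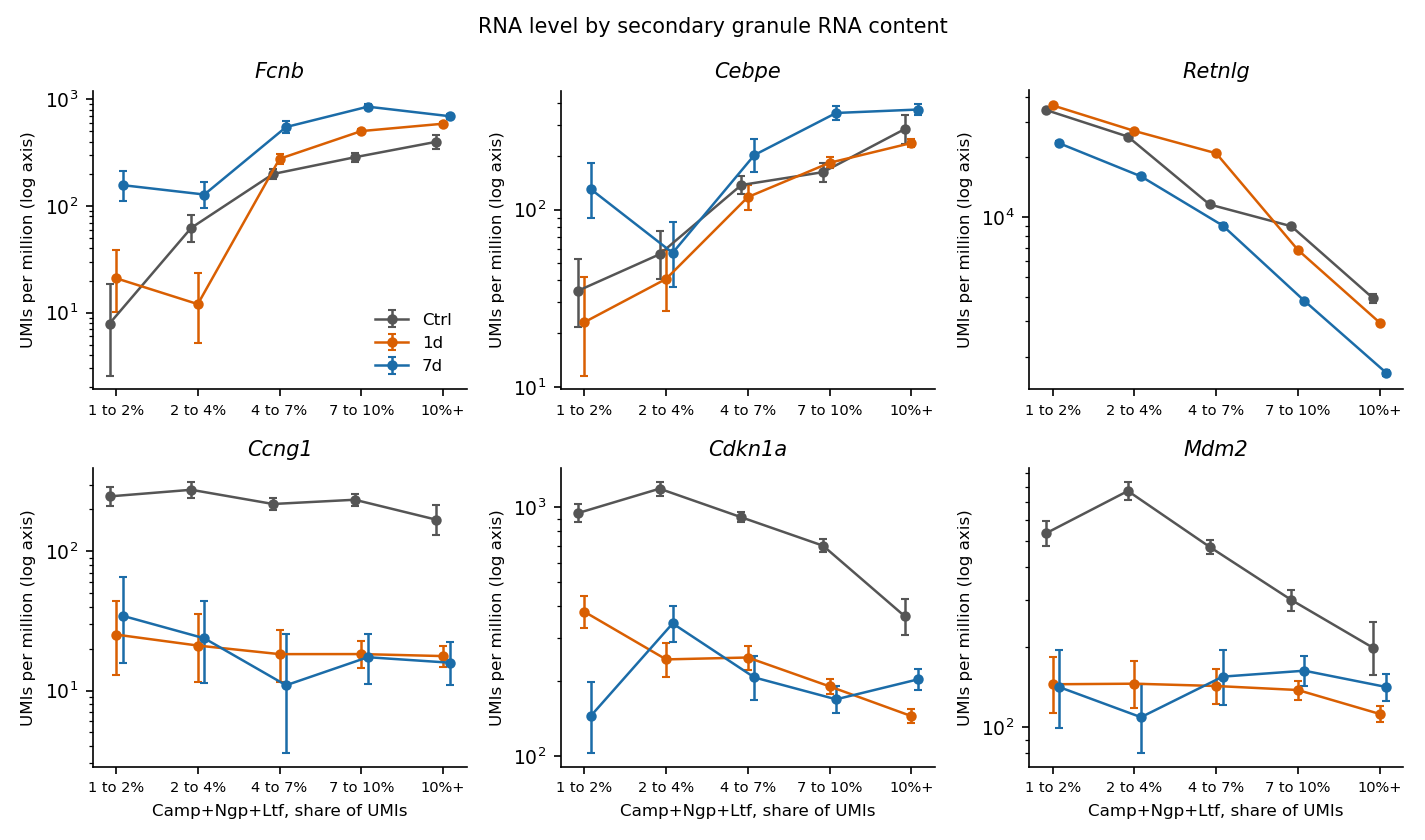
CPM (log axes) of 6 genes in the 5 ranges of Camp+Ngp+Ltf share of UMIs in Ctrl (grey), 1d (orange) and 7d (blue), with exact 95% counting intervals. Fcnb is higher and Retnlg lower at 10% or more than at 1% to 2% in all 3 libraries, and Ccng1 is 169 CPM or more in every range of Ctrl and 34.5 CPM or less in every range of 1d and 7d.

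Ccng1, Cdkn1a and Bax were also lower in the rest of each library, with ratios nearer 1. Over the rest of each library, Ccng1 was at 0.252 and 0.309 times Ctrl and Cdkn1a at 0.435 and 0.509 times. Cdkn1a differed in lymphoid barcodes, where it stood at 258, 133 and 315 CPM in Ctrl, 1d and 7d, highest in 7d. Bax was at 0.20 (0.178 to 0.225) and 0.202 (0.168 to 0.24) times in the secondary granule cells and at 0.637 and 0.558 times in the rest. Bbc3 (Puma), a pro-apoptotic target, was lower in the secondary granule cells at 0.221 (0.177 to 0.277) and 0.485 (0.377 to 0.619) times and higher in the rest at 1.38 and 2.08 times. The rest differed in cell types between libraries, and none of these differences between cell sets was tested. Over the rest of each library 15 of 45 targets were lower and 3 higher in 1d, and 13 lower and 5 higher in 7d. In mature cells outside the choice, 17 of 40 targets were lower in 1d and 18 of 38 in 7d. In cells rich in Elane, Mpo and Prtn3, 14 of 41 and 14 of 41 were. Shares over all genes are not given here for these other cell sets. Some were small, with 43 cells rich in Elane, Mpo and Prtn3 in Ctrl and 122 mature cells in 7d. Whether the list stood apart from all genes there cannot be told from these counts. Whether the labels match the libraries was not tested.

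**Figure D5:**
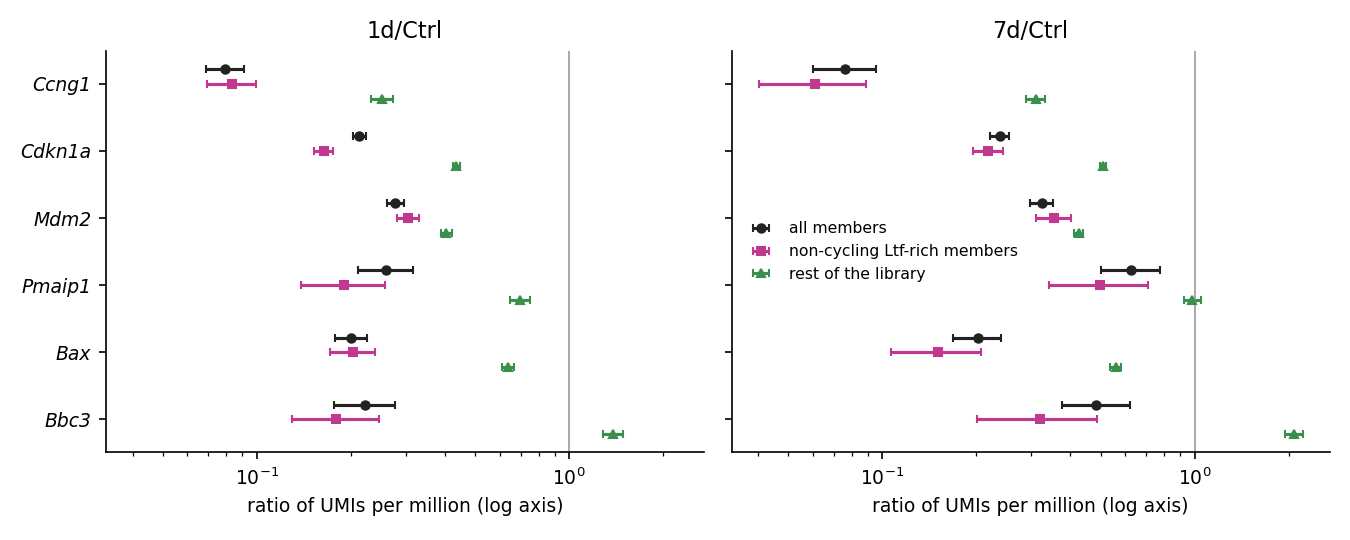
Ratio of CPM to Ctrl (x axis, log scale) of 6 p53 target genes (rows) in 1d (left) and 7d (right), with exact 95% counting intervals, over all secondary granule cells (black circles), non-cycling Ltf-rich cells alone (magenta squares) and the rest of the library (green triangles). The points of the secondary granule cells lie left of 1 for all 6 genes, and Bbc3 in the rest of the library lies right of 1.

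Many measured genes of the interferon response were lower past 2-fold in 1d and in 7d. Ifi27l2a, an interferon-induced mitochondrial protein, stood at 684 CPM in Ctrl, 29.98 in 1d and 43.1 in 7d, or 0.0438 (0.0394 to 0.0485) and 0.063 (0.0544 to 0.0726) times Ctrl, against 0.483 and 0.332 times in the rest of the library. Rtp4, an interferon-induced chaperone, stood at 16.6 CPM in Ctrl, 3.14 in 1d and 1.72 in 7d and Gbp2, a guanylate-binding protein, at 7.73 CPM in Ctrl, 1.46 in 1d and 2.36 in 7d. Of 34 measured genes, 16 were lower past 2-fold in 1d and 0 higher, and of 31 in 7d, 16 were lower and 1 higher. The medians were −0.96 and −1.08, and −1.30 and −0.78 in non-cycling Ltf-rich cells.

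Many inflammatory genes downstream of NF-kB were lower too, and some of them are genes of later neutrophils. Il1b stood at 591 CPM in Ctrl, 129 in 1d and 101 in 7d, or 0.219 (0.206 to 0.232) and 0.17 (0.154 to 0.188) times Ctrl. Il1rn, the antagonist of the interleukin 1 receptor, stood at 487 CPM in Ctrl, 133 in 1d and 63.3 in 7d, and Cxcl3, a chemokine that attracts neutrophils, at 143 CPM in Ctrl, 21.8 in 1d and 14.2 in 7d. Of 29 genes, 13 were lower past 2-fold in 1d, and of 28, 17 in 7d, and 0 were higher in either. Within the range of 10% or more, Il1b was 186 CPM in Ctrl, 37.1 in 1d and 47.1 in 7d. In mature cells outside the choice it was 4109, 2259 and 2001 CPM.

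Apart from these lists, the largest ratios by the nearer end of the interval named a further set of genes that were high in Ctrl. Gja5 (connexin 40, a gap junction protein; ENSMUSG00000057123, GRCm38 chromosome 3, 96904693 to 97077416) stood at 36.3 CPM in Ctrl, 0.877 in 1d and 0.429 in 7d and Cd38 (an enzyme that consumes NAD; ENSMUSG00000029084, chromosome 5, 43868553 to 43912375) at 87.4 CPM in Ctrl, 7.46 in 1d and 4.51 in 7d. Gja5 gave 197 UMIs in Ctrl, 12 in 1d and 2 in 7d, a ratio of 0.0242 (0.0123 to 0.0432) in 1d. In Ctrl it was 1.12 CPM in mature cells outside the choice, and 44.2 CPM in secondary granule cells at 7% to 10%, 0.0 in cells rich in Elane, Mpo and Prtn3. Cd38 in Ctrl was 111 CPM at 4% to 7% and 12.6 CPM in mature cells. Pla2g7 (a phospholipase that cleaves platelet-activating factor) stood at 90.03 CPM in Ctrl, 8.7 in 1d and 4.93 in 7d, Met (the receptor of hepatocyte growth factor) at 16.2 CPM in Ctrl, 1.83 in 1d and 2.15 in 7d and Jup (plakoglobin, a junction protein) at 22.8 CPM in Ctrl, 4.39 in 1d and 5.36 in 7d. Peg10, a retrotransposon-derived imprinted gene, stood at 49.7 CPM in Ctrl, 6.58 in 1d and 1.29 in 7d and Asph, a hydroxylase of aspartate residues, at 46.6 CPM in Ctrl, 10.2 in 1d and 8.8 in 7d. Ratios of the rest of the library were 1.68 for Met and 0.883 for Jup in 1d, near or above 1. Stfa1 and Cstdc5, cysteine protease inhibitors with close paralogs, stood at 273 CPM in Ctrl, 55.9 in 1d and 87.5 in 7d and at 206 CPM in Ctrl, 26.3 in 1d and 60.7 in 7d, and reads of such copies may be split among them.

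Several of the genes low in 7d were intermediate in 1d. Abca1, which exports cholesterol, stood at 290.0 CPM in Ctrl, 122 in 1d and 21.2 in 7d and Upp1 (uridine phosphorylase) at 239 CPM in Ctrl, 79.3 in 1d and 16.3 in 7d. Bcl2a1b, an anti-apoptotic protein with near-identical paralogs, stood at 137 CPM in Ctrl, 38.2 in 1d and 8.58 in 7d, and Pdcd1lg2 (the checkpoint ligand PD-L2) at 30.2 CPM in Ctrl, 9.43 in 1d and 0.429 in 7d with 2 UMIs in 7d. Glis3, a zinc finger factor, stood at 25.6 CPM in Ctrl, 5.26 in 1d and 0.858 in 7d and Kif1a, an axonal motor protein, at 14.5 CPM in Ctrl, 4.02 in 1d and 0.215 in 7d with 1 UMI in 7d. In the other direction, Kcnab2, a potassium channel subunit, stood at 10.9 CPM in Ctrl, 33.8 in 1d and 61.4 in 7d, and its ratios of 3.1 and 5.93 in non-cycling Ltf-rich cells were as far from 1 as in all secondary granule cells. Mfsd13a, a putative transporter, stood at 3.31 CPM in Ctrl, 13 in 1d and 29.6 in 7d and Iqgap3, a scaffold of dividing cells, at 2.95 CPM in Ctrl, 14.2 in 1d and 22.5 in 7d.

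Antioxidant and stress genes differed in both directions. Cat (catalase) stood at 2.76 CPM in Ctrl, 6.87 in 1d and 16.1 in 7d, or 2.49 (1.43 to 4.62) and 5.83 (3.32 to 10.9) times Ctrl. Red cell precursors are rich in catalase, and RNA of some of their genes stood in the same order as Cat. Car2 was at 4.79 CPM in Ctrl, 9.65 in 1d and 82.4 in 7d. Hemgn was at 2.58 CPM in Ctrl, 4.68 in 1d and 10.1 in 7d. Haemoglobin genes stood in another order, with sums of 4040 CPM in Ctrl, 2996 in 1d and 6556 in 7d. The part of such RNA in the level of Cat was not tested, and how the UMIs of Car2 and Hemgn were spread over single cells is not given here. Hmox1 (haem oxygenase 1) stood at 475 CPM in Ctrl, 168 in 1d and 314 in 7d, Slc7a11 (the cystine transporter) at 929 CPM in Ctrl, 370.4 in 1d and 397 in 7d and Sqstm1 (p62, an autophagy receptor) at 339 CPM in Ctrl, 129 in 1d and 101 in 7d. Sod2 (mitochondrial superoxide dismutase) stood at 492 CPM in Ctrl, 307 in 1d and 97.6 in 7d and Fth1 (ferritin heavy chain) at 32943 CPM in Ctrl, 15144 in 1d and 7993 in 7d. Of 27 genes of NRF2 and oxidative stress, 1 was higher and 6 lower past 2-fold in 1d, and 4 were higher and 6 lower in 7d. The shares higher were 3.7% and 14.8%, below the 9.47% and 20% of all measured genes. The share lower was 22.2% in both, beside 10.2% and 10.4% of all measured genes. The heat shock genes Hspa1a and Hspa1b, near-identical copies, stood at 111 CPM in Ctrl, 346 in 1d and 132 in 7d and at 126 CPM in Ctrl, 391 in 1d and 202 in 7d. Over non-cycling Ltf-rich cells Hspa1a was 60.7, 108 and 67.3 CPM, and in lymphoid barcodes 971, 1410.3 and 719 CPM. Tsc22d3 (GILZ), which glucocorticoids induce, stood at 21.2 CPM in Ctrl, 35.3 in 1d and 51.7 in 7d, a ratio of 2.44 (1.95 to 3.08) in 7d, and Dusp1, a phosphatase of MAP kinases, stood at 756 CPM in Ctrl, 259.9 in 1d and 377 in 7d. Of 14 measured glucocorticoid-responsive genes, 0 were higher and 6 lower past 2-fold in 1d, and 1 was higher and 3 lower in 7d. The shares lower were 42.9% and 21.4%, beside the same 10.2% and 10.4%. The share higher in 7d was 7.14%, below the 20% of all measured genes. For non-cycling Ltf-rich cells 0 were higher and 6 lower in 1d, and 3 higher and 0 lower in 7d, so the balance in 7d turned with the cells compared. Those 3 genes made up 21.4% of the list, beside 9.43% of all genes measured in those cells.

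Fewer genes were past 2-fold between 7d and 1d than between either of them and Ctrl. In 7d against 1d, 859 of 10165 genes (8.45%) were higher and 388 (3.82%) lower, with a median of 0.21. With TMM factors the split was 491 higher and 608 lower. Of the primary granule genes outside the choice, Ms4a3 was at 2.17 and Ctsg (cathepsin G) at 4.15 times 1d. Some inflammatory genes were lower, with 7 of 29 past 2-fold and 0 higher. For p53 targets 5 of 40 were higher and 1 lower, and for late neutrophil genes 1 of 19 was higher and 1 lower. Cycle lists hardly differed, with 0 of 35 S phase genes and 1 of 49 G2/M genes past 2-fold upwards.

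RNA of other cell types was present in the secondary granule cells and moved with the libraries. The 6 mesenchymal markers summed to 633, 77.1 and 29.8 CPM in Ctrl, 1d and 7d, none of them at 0, and 1 cell of Ctrl held 1919 of the 3436 UMIs. At least 2 such UMIs were held by 103, 69 and 9 cells. Of genes of red cell precursors, Car2 stood at 4.79 CPM in Ctrl, 9.65 in 1d and 82.4 in 7d and Tfrc (the transferrin receptor, which dividing cells also express) at 38.8 CPM in Ctrl, 80.4 in 1d and 96.6 in 7d, and Car1 and Ermap were at 0 in Ctrl. Haemoglobin genes summed to 4040.2, 2996 and 6556 CPM. B cell markers summed to 28.2, 74.8 and 45.1 CPM, T cell markers to 20.8, 7.53 and 23 CPM and macrophage markers to 36.5, 11 and 33.3 CPM, with Cd5l at 0 in all 3. In each library 1 cell held most of the macrophage marker UMIs, 118 of 198 in Ctrl, 80 of 151 in 1d and 110 of 155 in 7d. The monocyte markers summed to 776, 694 and 999 CPM, most of it Ly6c2, which precursors of granulocytes also express. Of the mast cell and basophil markers, 700 of 761 UMIs in 1d came from 1 cell. As an alternative, the 142, 143 and 61 cells with at least 2 UMIs of any of 8 marker lists were left out. The lists were B, T, natural killer, macrophage, eosinophil, mast cell and basophil, megakaryocyte and mesenchymal markers. Cells with only red cell precursor, monocyte, dendritic, endothelial, epithelial or progenitor markers were kept. The ratios in 1d were then 0.0771 for Ccng1 and 2.83 for Fcnb, against 0.0792 and 2.46 with all cells. The part of these other cells in the differences between libraries was not otherwise tested.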

How the data were processed

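The deposited files hold counts of UMIs per gene and barcode, not normalized, written by Cell Ranger 6.1.1 per the file headers. The submitters' processing notes name CASAVA 1.8, Cell Ranger, Seurat and the mm10 build. Neither the gene annotation nor the cell calling is given in the sources used here.

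The cells and all gene lists were chosen with earlier results of these data known. Counts were summed over the chosen cells of each library with Python 3.11.15, numpy 2.4.6 and scipy 1.17.1. Ratios carry exact conditional 95% intervals, shares carry Clopper-Pearson intervals, and log2 ratios used a pseudocount of 0.5 UMI. Intervals cover counting error only. Named genes were up to 12 per side and comparison furthest from 1 by the nearer interval end, 24 fixed genes, and up to 4 per list. A named gene needed a UMI in at least 10% of cells where it was higher, no cell with over 20% of its UMIs there, and a level at least that of the other barcodes of that library. Haemoglobin, immunoglobulin, T cell receptor, mitochondrial, ribosomal protein, Gm, Rik and sex-linked marker genes were left out. Up to 8 genes per side were named between cycling and non-cycling cells, by their lowest ratio over the libraries compared. Doublets were kept, and leaving out those that Scrublet (scanpy 1.11.5) scored highest, at 0.8% per 1000 barcodes, was an alternative that marked 70, 84 and 39 chosen cells. Scrublet's automatic threshold marked 293, 10 and 1 of the kept barcodes, so it did not work in 1d and 7d. TMM factors came from edgeR 4.0.16, and no count model was fitted. Ratio intervals and thinning were tested on simulated data. Coordinates are GENCODE M21 on GRCm38, to which 31107 of 31253 gene IDs matched.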

Additional observations from a re-analysis of the deposited data

Results flagged for a closer look

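Bbc3, which encodes the pro-apoptotic protein Puma, had opposite directions in 2 sets of cells of the same libraries. In 7d against Ctrl its ratio was 0.485 in the secondary granule cells (0.377 to 0.619, 94 and 226 UMIs) and 2.08 in the rest of the library (3414 and 1301 UMIs). The difference between the cell sets was not tested, and the rest of the library differs in cell types between 7d and Ctrl.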

How the results depend on the processing

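The share of secondary granule cells in 1d was 4.90 times Ctrl, and 2.9 and 6.24 times with bounds of 0.5% and 2%. It was 6.18 times without cells holding markers of the 8 lists named above. In 7d the same settings gave 0.738, 1.58 and 1.53, against 1.26. Cycling shares in Ctrl, 1d and 7d were 30.5, 33.5 and 47% without thinning, 20.2, 26 and 36.2% with 1 UMI, 19.6, 25.5 and 35.4% at 2000 UMIs and 12.3, 18.1 and 28.1% at 4% or more of Camp, Ngp and Ltf, a bound chosen after seeing the data. In Ctrl they were 4.9% and 10.0% with bounds of 0.5% and 2%. Ltf-rich shares were 69, 83.8 and 82% with Ltf at 0.25%, 19.3, 26.2 and 35.7% with Ltf at 1%, 89.2, 84.6 and 82.1% at 4% or more, and 73.1, 77.4 and 76% with the bound of 2%. With the bound of 0.5% they were 30.1% in Ctrl and 68.1% in 1d, and with Elane, Mpo and Prtn3 under 0.25% it was 74.7% in 7d.

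Thinning and higher UMI minimums left fewer genes to measure. Thinning left 384 higher and 390 lower in 1d, 456 and 474 in 7d, and 380 higher in 7d against 1d. A minimum of 100 UMIs left 466 and 444, 845 and 512, and 268 and 139 in the same order. A minimum of 5 UMIs gave 1926 lower in 1d, 1705 lower in 7d, and 1569 higher and 914 lower in 7d against 1d. Totals without granule genes gave 1573 higher in 1d. In non-cycling Ltf-rich cells 504 were higher in 1d, 732 in 7d and 545 in 7d against 1d. In cycling cells 509 were lower in 1d, 494 lower in 7d and 438 higher in 7d against 1d. For 7d against 1d, 540 were higher without doublets, 408 in cycling Ltf-low cells and 491 with TMM factors, which gave 608 lower. The p53 list's median in 7d was −1.52 in thinned cells.

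Of 320 single-gene results, 213 were past 2-fold as reported, and 10 of these changed sign under an alternative, in 12 values. Of the others, 43 changed sign in 100 values, 25 of them in cycling cells alone and 19 in thinned cells. On the log2 scale, among the 10, in cycling cells against Ctrl, Cxcl3 was at 0.0246, Errfi1 at 0.397, Pfkfb3 at 0.000183, S100a10 at −0.393, Sdf2l1 at −0.0886, Ctsg at −0.0646 and Prtn3 at −0.375 in 7d, and Ddit4 at 0.0895 and Stfa1 at 0.519 in 1d. In non-cycling Ltf-rich cells of 7d Ctsg was at −0.141 and Prtn3 at −0.451. With 5% free RNA subtracted Elane in 1d was at −0.0063. The cause was not tested. Cycling Ltf-low cells gave no comparison with Ctrl, which had 8 of them. No paired analysis was possible because each group was 1 library, and no library could be left out. Depth limits genes of low level: Gja5 and Pdcd1lg2 rest on 2 UMIs each in 7d.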

Other observations

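The S100 proteins of neutrophils, which bind calcium and metals, differed unequally in the secondary granule cells. S100a8 stood at 94555 CPM in Ctrl, 141456 in 1d and 125468 in 7d and S100a9 at 97848 CPM in Ctrl, 134221 in 1d and 112488 in 7d. S100a10, the annexin A2 partner, stood at 21.2 CPM in Ctrl, 28.4 in 1d and 78.5 in 7d, a ratio of 3.71 (3.000 to 4.61) in 7d and of 2.71 in non-cycling Ltf-rich cells, but it was below 1 in cycling cells. S100a6 stood at 5501 CPM in Ctrl, 1918 in 1d and 2205 in 7d, or 0.349 and 0.401 times Ctrl.

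Of 24 measured apoptosis genes, 7 were lower past 2-fold in 1d and 0 higher, and of 23 in 7d, 8 were lower and 2 higher. Several of these genes are p53 targets as well. Of the measured apoptosis genes, 29.2% were lower in 1d and 34.8% in 7d, beside 10.2% and 10.4% of all measured genes. The share higher in 7d was 8.7%, below the 20% of all measured genes. Genes of protein folding and secretion, which granule filling draws on, were nearly all within 2-fold, with 0 of 22 higher in 1d and 2 in 7d, where Sdf2l1 was at 2.62 and Creld2 at 2.2 times Ctrl. Of 20 genes of glycolysis and hypoxia, 2 were lower in 1d and 4 in 7d, or 10.00% and 20% beside 10.2% and 10.4% of all measured genes.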
